A study of Mus musculus with 36 samples.

Results

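Otx2, Pou3f1, Sall2, Zic2 and Zic5 are transcription factor genes whose RNA is known to mark the primed epiblast, the state that pluripotent cells enter on their way out of naive pluripotency. They were taken by gene symbol in the FPKM tables and by RefSeq transcript in the count tables, and all 5 members were found among the 22456 genes present in both kinds of table and among the 12466 genes tested. All cells of the series lacked MLL3 (gene Kmt2c), an H3K4 methyltransferase that acts at enhancers, and differed in its relative MLL4 (gene Kmt2d). The f/f cells (MLL3-/-;MLL4flox/flox) kept the floxed MLL4 allele, and the DKO cells (MLL3-/-;MLL4-/-) carried no MLL4, so MLL3 was missing from the controls too and wild-type cells were not compared. RNA was sequenced in 12 mouse libraries: embryonic stem cells (ESC) grown with LIF on irradiated feeder cells, embryoid bodies after 4 days in suspension without LIF, immortalised embryonic fibroblasts, and those fibroblasts 20 days after lentiviral Oct4, Sox, Klf4 and c-Myc. ESC and bodies had 2 libraries per group, and fibroblast and day-20 groups had 1. The other 24 samples of the 36 in the series were not analysed here. The labels do not give the number of ESC lines or clones behind a genotype, and they do not say that the replicates are separate cultures, so the p-values speak only to the spread of these libraries, which could be technical.

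Naive ESC leave self-renewal when LIF is withdrawn and pass through a state like the early post-implantation epiblast before the streak and the neural plate form. OTX2 and POU3F1 (also called OCT6) are homeodomain proteins that are known to act early in this change, with OTX2 binding alongside OCT4 at enhancers of the primed state, and both proteins also act later in anterior and neural tissue. ZIC2 and ZIC5 are zinc finger proteins of one family whose genes lie next to each other, and ZIC2 binds enhancers in ESC and is needed for the forebrain and neural tube. SALL2 is a zinc finger protein of the spalt family and is known from many differentiated tissues as well.

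In replicate 1, each value was an RPKM (reads per transcript length and library depth), and in replicate 2, in fibroblasts and at day 20 an FPKM (the same measure per gene). The 2 kinds of table were counted differently, so levels were compared only within a replicate. The depth behind the values was 11366210 to 38264150 reads per library, and the ESC or body value of a member rested on at least 138 reads. The 5 ESC markers (Pou5f1, Nanog, Sox2, Zfp42 and Esrrb) were all above 1 in the 8 ESC and body libraries, which does not separate these stages. In f/f bodies the 5 streak markers (Tbxt, Mixl1, Eomes, Fgf8 and Lhx1) summed to 155.3 RPKM and 111.8 FPKM, against 22.6 and 2.51 in f/f ESC. In DKO bodies they summed to 7.36 RPKM and 8.77 FPKM, against 9.02 and 5.15 in DKO ESC. By these markers only f/f bodies stood well above ESC of their genotype. The deposited Kmt2d value covers the whole transcript and does not isolate the deleted part, so it checks nothing: in replicates 1 and 2 it was 13.5 RPKM and 18.7 FPKM in f/f ESC against 8.89 and 10.7 in DKO ESC, and in fibroblasts it was higher in the library labelled DKO (23.5 against 14.4 FPKM). One pair of libraries stood apart for these genes. Relative to the other libraries of their replicate, the DKO bodies of replicate 1 and of replicate 2 gave different levels of Otx2, Pou3f1 and Sall2. Most estimates or counts that rest on them are given with and without each. For the gene lists, the fits without each were summarised only after the data were seen. Correlations between genes and the tests of neighbouring genes are given with both only. The names of the deposited tables carry a number after the genotype for DKO ESC of both replicates and for DKO bodies of replicate 1, and none for DKO bodies of replicate 2. What that number stands for is not given in the sources used here.

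The windows of 250 bases before annotated starts were read for the members that RefSeq's promoter table (GRCm38.p6) holds, Otx2 with 4 starts, Sall2 with 2 and Zic5 with 1. All 3 genes were higher in f/f bodies than in f/f ESC in both replicates, and whether the windows bear on that was not tested. Each is written 5′ to 3′ along the gene's strand, which is minus for all 3 genes, and the deposited tables themselves use mm9. Capitals mark matches on either strand to one of 3 motifs. The first, TAATTA, is a core bound by many homeodomains and reads the same on both strands. The second, TAATCC, is the bicoid-type site that OTX2 prefers, and its match here lies on the other strand. The third, TATAAA, is the TATA box.
Otx2, start 1, chr14:48667645-48667894: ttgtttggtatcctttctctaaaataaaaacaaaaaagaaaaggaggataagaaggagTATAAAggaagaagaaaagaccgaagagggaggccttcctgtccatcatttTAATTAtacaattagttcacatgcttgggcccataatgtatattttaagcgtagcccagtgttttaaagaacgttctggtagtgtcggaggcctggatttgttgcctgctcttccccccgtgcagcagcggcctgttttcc
Otx2, start 3, chr14:48665110-48665359: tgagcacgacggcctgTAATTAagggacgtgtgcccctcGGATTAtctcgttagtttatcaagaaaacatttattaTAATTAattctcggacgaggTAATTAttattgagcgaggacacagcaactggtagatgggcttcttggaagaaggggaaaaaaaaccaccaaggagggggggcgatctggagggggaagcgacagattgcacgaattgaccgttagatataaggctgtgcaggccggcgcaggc
Sall2, start 2, chr14:52316324-52316573: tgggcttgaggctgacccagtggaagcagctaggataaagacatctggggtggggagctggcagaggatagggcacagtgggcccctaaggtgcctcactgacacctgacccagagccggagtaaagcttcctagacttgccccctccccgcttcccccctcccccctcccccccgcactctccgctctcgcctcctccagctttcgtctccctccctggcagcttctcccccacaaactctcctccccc
Zic5, start 1, chr14:122465659-122465908: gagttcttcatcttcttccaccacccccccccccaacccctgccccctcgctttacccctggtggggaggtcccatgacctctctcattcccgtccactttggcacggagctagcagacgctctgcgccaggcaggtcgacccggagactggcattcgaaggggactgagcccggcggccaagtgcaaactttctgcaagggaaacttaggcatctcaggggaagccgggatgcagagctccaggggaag
Otx2 start 3 held 4 matches, 3 to TAATTA and 1 to TAATCC, and Otx2 start 1 held a TATAAA and a TAATTA. Of 32851 promoter windows of this length in the table, 4.84% held TAATTA, 6.25% held TAATCC and 12.4% held TATAAA. Otx2 starts 2 and 4, which are not shown, held none of the 3 motifs. Sall2 start 1, also not shown, held a TATAAA, and the Sall2 and Zic5 windows shown held none of the 3. The octamer ATGCAAAT (searched on both strands), bound by POU factors, and the E-box CACGTG were in none of the 7 windows of the members, against 1.60% and 6.02% of all windows. The CG-poor upstream start of Sall2 had 0 CG dinucleotides in 250 bases, and the start shown had 6, the same as the median window. A match says only that these letters stand in the window.

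**Figure D1:**
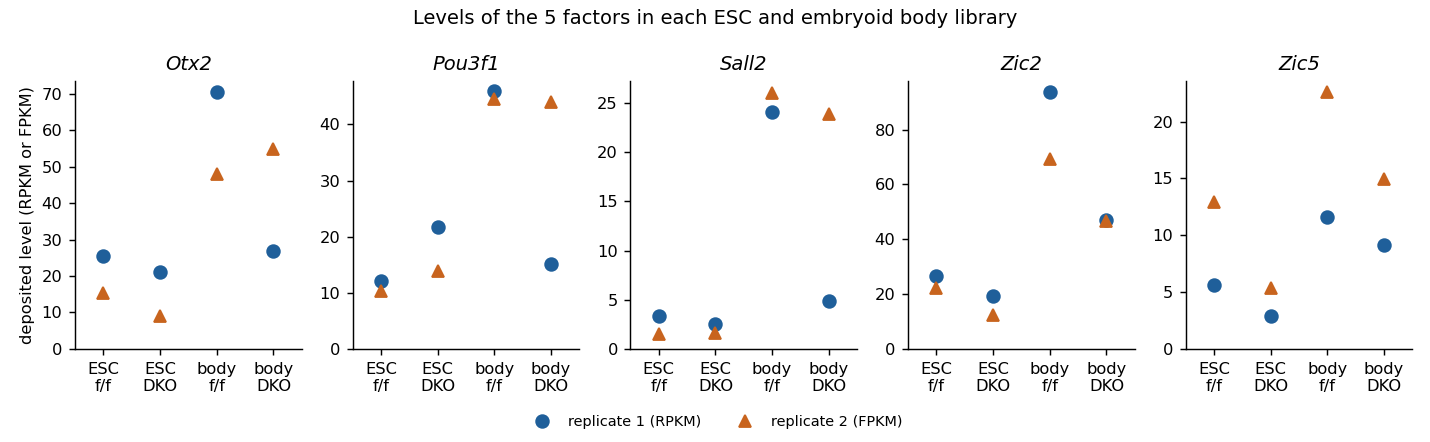
Levels of the 5 factors in each of the 8 ESC and body libraries, on a linear axis from 0; circles are RPKM of replicate 1 and triangles FPKM of replicate 2, 1 point per library. Bodies labelled f/f lie above f/f ESC in every panel for both replicates. For Otx2, Pou3f1 and Sall2, DKO bodies lie far below f/f bodies in replicate 1 and near them in replicate 2. The units differ, so heights compare only within a replicate.

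In f/f cells all 5 genes were higher in bodies than in ESC in both replicates, and 4 of the 5 passed the test (Pou3f1, Sall2, Zic2 and Zic5). Over all genes tested, 12% passed in either direction and 8.13% as higher in bodies. The median difference of the 5 members was 1.69 in log2(value + 1), beside 0.06 over all genes tested. Differences below are limma estimates on this scale, on which low genes appear to change less than they do.

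Sall2 differed most. Its level rose from 3.36 to 24.1 RPKM in replicate 1 (295 and 2143 reads) and from 1.52 to 26.0 FPKM in replicate 2, which are ratios of 7.17 and 17.1. The estimate was 2.97 ± 0.64 (SE, n = 2 libraries per group; 95% interval 1.43 to 4.52; limma adjusted p = 0.0353). Sall2 is the member with the lowest ESC level per length in both replicates, and the size of its rise was the least alike between replicates, with 2.52 in replicate 1 and 3.42 in replicate 2. Feeder cells are fibroblasts, which carry Sall2 RNA (below). The 8 fibroblast markers summed to 266.2 FPKM in f/f ESC and 65.7 FPKM in f/f bodies of replicate 2, and to 36.2 and 25.4 RPKM in replicate 1, against 3259 FPKM in f/f fibroblasts. Sall2 thus rose while these markers were lower, and the share of the ESC value that came from feeders was not tested. In a bulk library, fewer cells of a type and less RNA per cell cannot be told apart, and this holds for every result here.

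Pou3f1 stood at 12.2 RPKM in f/f ESC and 46.0 RPKM in f/f bodies of replicate 1, and at 10.2 and 44.5 FPKM in replicate 2. Both replicates gave nearly the same ratio, 3.78 and 4.34. The estimate was 1.93 ± 0.46 (SE; 95% interval 0.81 to 3.04; adjusted p = 0.0462). It passed in 4 of 10 other settings, and the adjusted p ranged from 0.0162 to 0.189 over the 10.

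Zic2 had the highest level per length of the 5 in every f/f library of ESC and bodies. It stood at 26.6 and 93.7 RPKM in ESC and bodies of replicate 1 and at 22.2 and 69.1 FPKM in replicate 2. The rise of 1.69 ± 0.15 (SE; 95% interval 1.32 to 2.06) had the lowest adjusted p of the members, 0.0135. Its neighbour Zic5 rose less, from 5.65 to 11.6 RPKM and from 13.0 to 22.6 FPKM, by 0.84 ± 0.15 (SE; adjusted p = 0.0237).

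Otx2 differed about as much as Zic2 in its estimate and did not pass. It stood at 25.5 and 70.5 RPKM in replicate 1 and at 15.4 and 48.1 FPKM in replicate 2, an estimate of 1.51 ± 0.47 (SE; 95% interval 0.38 to 2.64; adjusted p = 0.0837). All 8 libraries share 1 error in the fit, DKO bodies included: with the DKO bodies of replicate 1 left out, the same estimate had an adjusted p of 0.0145, and with those of replicate 2 left out 0.0149. Then all 5 members passed. The 4 calls in f/f cells were all lost when any 1 of the 4 f/f libraries was left out. Such a fit leaves an arm with 1 library, and few or no genes of all tested passed in it. The loss is thus not particular to these members. Of the 8 fits that left out a library, Pou3f1 and Sall2 were called in 2 and Zic2 and Zic5 in 4. Their estimates over the 8 were 1.68 to 2.18, 2.28 to 3.67, 1.61 to 1.76 and 0.68 to 0.997, in that order.

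**Figure D2:**
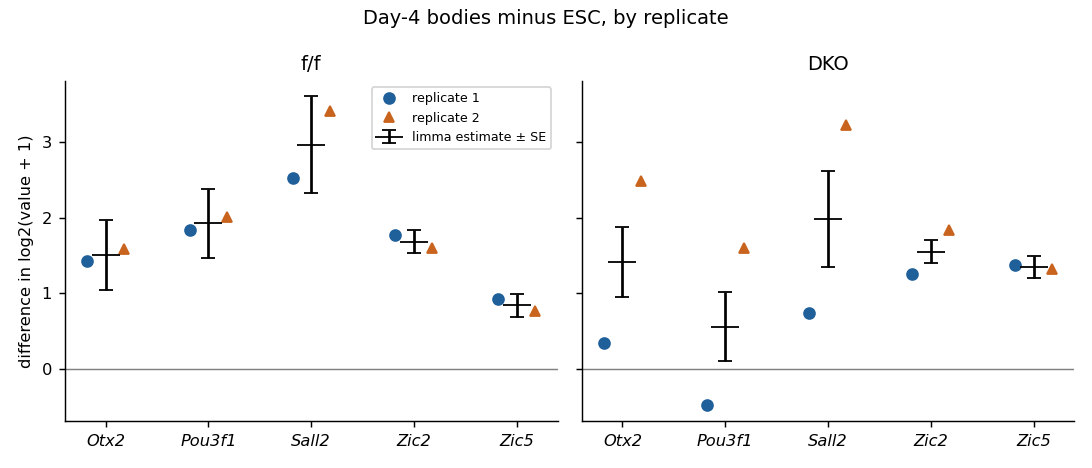
Difference between bodies and ESC in log2(value + 1) for each factor, f/f on the left and DKO on the right. Circles and triangles are replicates 1 and 2, and the black bar is the limma estimate with its SE. Each group holds 2 libraries. The SE of a factor comes from 1 spread shared by all 8 libraries, so the f/f bars also hold the spread of the DKO bodies. All f/f points lie above 0, with the widest gap between replicates for Sall2 (2.52 and 3.42), while in DKO cells the points of Otx2, Pou3f1 and Sall2 lie far higher for replicate 2 than for replicate 1.

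In DKO cells, Zic2 and Zic5 rose from ESC to bodies and the other 3 members did not pass the test; over all genes tested 0.826% passed, and 0.201% as higher in bodies. Zic2 stood at 19.1 and 47.1 RPKM in DKO ESC and bodies of replicate 1 and at 12.4 and 46.7 FPKM in replicate 2. Its estimate was 1.55 ± 0.15 (SE; adjusted p = 0.0285). Zic5 stood at 2.93 and 9.17 RPKM and at 5.38 and 15.0 FPKM, with an estimate of 1.35 ± 0.15 (SE; adjusted p = 0.0324). Zic5 was the member whose replicates differed least here (1.37 and 1.33), while Zic2 rose by 1.26 and 1.84. With 1 library left out, the Zic5 call was lost in all 8 fits (estimates 1.23 to 1.47) and the Zic2 call in 7 of 8 (1.34 to 1.75). In those 7 fits few or no genes of all tested passed.

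For the remaining 3 members, bodies exceeded ESC by far more in replicate 2 than in replicate 1, where Pou3f1 was lower in bodies. Otx2 went from 21.2 to 26.96 RPKM and from 8.97 to 54.8 FPKM, ratios of 1.27 and 6.11. Sall2 went from 2.51 to 4.87 RPKM and from 1.65 to 23.9 FPKM, ratios of 1.94 and 14.4. Pou3f1 went from 21.7 down to 15.2 RPKM in replicate 1 and from 13.9 up to 44.0 FPKM in replicate 2. These 3 gaps between replicates were larger than those of 99.1%, 99.5% and 99.0% of all genes tested. The fitted differences, 1.41 ± 0.47 for Otx2, 1.99 ± 0.64 for Sall2 and 0.55 ± 0.46 for Pou3f1 (SE), had adjusted p-values of 0.183, 0.175 and 0.552. Without the DKO bodies of replicate 1, the estimates were 2.31 for Otx2, 3.21 for Sall2, 1.44 for Pou3f1, 1.75 for Zic2 and 1.23 for Zic5. Without those of replicate 2 they were 0.51 for Otx2, 0.76 for Sall2, −0.33 for Pou3f1, 1.34 for Zic2 and 1.47 for Zic5. Each of these fits leaves 1 library of DKO bodies, so no call is drawn from them.

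The comparison of DKO with f/f ESC asks what the loss of MLL4, in cells already without MLL3, does to these genes before differentiation. Zic5 was lower in DKO ESC and was the only member called; over all genes 4.24% passed, and 2.67% as lower in DKO. Zic5 stood at 5.65 RPKM in f/f and 2.93 RPKM in DKO ESC of replicate 1 (248 and 138 reads) and at 13.0 and 5.38 FPKM in replicate 2. It fell by 0.94 ± 0.15 on the log2 scale (SE; 95% interval −1.31 to −0.58; adjusted p = 0.0291), a ratio of 0.52 and 0.42 in the 2 replicates. The call was lost when any 1 of the 6 libraries other than DKO bodies was left out, with estimates between −1.10 and −0.79. Where that was an ESC library, few or no genes of all tested passed, so that loss is not particular to Zic5. Zic2 was lower in both replicates as well, with 26.6 and 19.1 RPKM and 22.2 and 12.4 FPKM in f/f and DKO, and did not pass (−0.63 ± 0.15, SE; adjusted p = 0.0791); it passed in 1 of 10 other settings, the replicate block fitted within each stage (adjusted p = 0.0484), and the adjusted p reached 0.517 over the 10.

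Otx2 was 25.5 and 21.2 RPKM in f/f and DKO ESC of replicate 1 and 15.4 and 8.97 FPKM in replicate 2 (−0.49 ± 0.47, SE; 95% interval −1.62 to 0.64; adjusted p = 0.597). Sall2 was 3.36 and 2.51 RPKM and 1.52 and 1.65 FPKM, and its replicates had opposite signs (−0.12 ± 0.64, SE; adjusted p = 0.938). Pou3f1 alone was higher in DKO ESC in both replicates, with 12.2 and 21.7 RPKM and 10.2 and 13.9 FPKM (0.59 ± 0.46, SE; 95% interval −0.52 to 1.71; adjusted p = 0.508). These 3 intervals span 0 and hold changes of over 1 log2 unit in at least one direction.

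**Figure D3:**
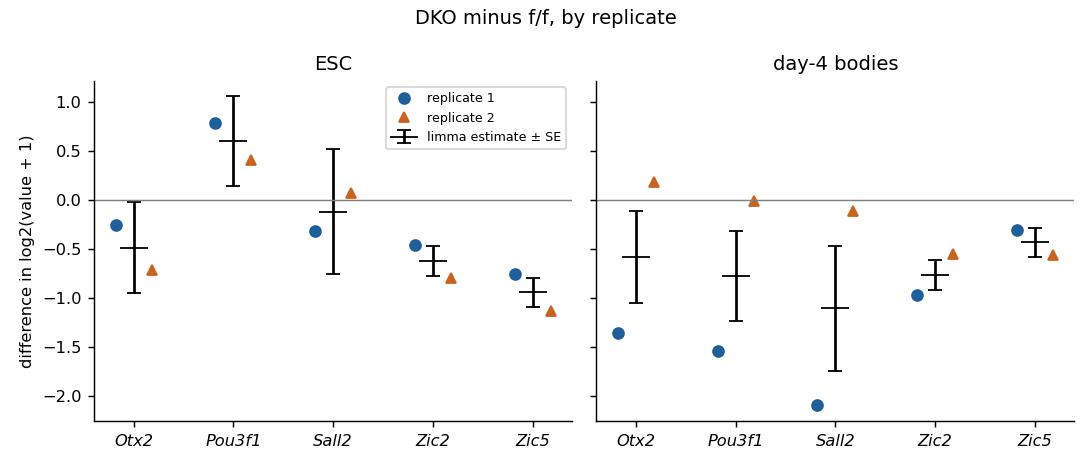
Difference between DKO and f/f cells in log2(value + 1) for each factor, ESC on the left and day-4 bodies on the right. Circles and triangles are replicates 1 and 2, and the black bar is the limma estimate with its SE. Each group holds 2 libraries. The SE of a factor comes from 1 spread shared by all 8 libraries, so the ESC bars also hold the spread of the DKO bodies. The gap between replicates is 0.34 to 0.46 in ESC for all 5 factors, and in bodies it is 1.52 to 1.98 for Otx2, Pou3f1 and Sall2 and 0.42 and 0.25 for Zic2 and Zic5.

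In bodies, Zic2 was the only member called between genotypes, and it was lower in DKO; over all genes 4.44% passed, and 3.61% as lower. Zic2 stood at 93.7 and 47.1 RPKM in f/f and DKO bodies of replicate 1 and at 69.1 and 46.7 FPKM in replicate 2. It fell by 0.76 ± 0.15 (SE; 95% interval −1.14 to −0.39), with an adjusted p of 0.0495 that sits at the threshold. The call ended in 9 of 10 other settings and in 7 of 8 fits that left out a library, with estimates from −0.97 to −0.56. Zic5 was 11.6 and 9.17 RPKM and 22.6 and 15.0 FPKM, lower in both replicates and not called (−0.43 ± 0.15, SE; adjusted p = 0.171).

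For Otx2, Pou3f1 and Sall2 the 2 replicates gave different answers. Otx2 was 70.5 and 26.96 RPKM in f/f and DKO bodies of replicate 1, but 48.1 and 54.8 FPKM in replicate 2. Pou3f1 was 46.0 and 15.2 RPKM in replicate 1, but 44.5 and 44.0 FPKM in replicate 2. Sall2 was 24.1 and 4.87 RPKM in replicate 1 (2143 and 537 reads), but 26.0 and 23.9 FPKM in replicate 2. DKO levels were thus 0.38, 0.33 and 0.20 times the f/f level in replicate 1 and 1.14, 0.99 and 0.92 times in replicate 2.

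The gap between the replicates was 1.54 log2 units for Otx2, 1.52 for Pou3f1 and 1.98 for Sall2, against 0.42 for Zic2, 0.25 for Zic5 and a median of 0.22 over all genes. The gaps of the former 3 exceeded those of 99.1%, 99.0% and 99.6% of genes tested. The fitted differences, −0.58 ± 0.47 for Otx2, −0.78 ± 0.46 for Pou3f1 and −1.11 ± 0.64 for Sall2 (SE), did not pass (adjusted p = 0.519, 0.388 and 0.376). Leaving out the DKO bodies of replicate 2, the estimates were −1.48 for Otx2, −1.66 for Pou3f1, −2.33 for Sall2, −0.97 for Zic2 and −0.31 for Zic5. Leaving out those of replicate 1, Otx2 (0.31), Pou3f1 (0.11) and Sall2 (0.12) changed sign while Zic2 (−0.56) and Zic5 (−0.55) did not. In each of these fits the DKO body arm holds 1 library, assumed to vary like the other groups, so no call is drawn from them.

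The difference of the genotype effects between bodies and ESC was called for none of the 5 members and for 0 of all 12466 genes (0%), while 1704 genes (13.7%) had an unadjusted p under 0.05 by limma and edgeR also called 0. Pou3f1 had the largest estimate of the members, −1.37 ± 0.65 (SE; adjusted p = 0.424). It was higher in DKO ESC in both replicates, and in bodies it was lower in DKO in replicate 1 and near the f/f level in replicate 2. Zic5 had an estimate of 0.51 ± 0.21 (SE; unadjusted p = 0.0506; adjusted p = 0.367), and those of Otx2 (−0.10), Zic2 (−0.14) and Sall2 (−0.99) were smaller than, or near, their errors of 0.66, 0.22 and 0.90. These estimates rest on the DKO bodies. Without those of replicate 1 they were 0.80 for Otx2, −0.49 for Pou3f1 and 0.24 for Sall2. Without those of replicate 2 they were −0.99, −2.26 and −2.21 in the same order. Each of these fits leaves 1 library of DKO bodies.

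Other genes of the primed state were taken from a list of 19 that were all tested. In bodies 1 of the 19 was called higher in DKO and 3 lower (median −0.99, beside −0.01 over all genes). Called or not, 14 of the 19 were lower in DKO in both replicates, 2 were higher in both and 3 had opposite signs, with medians of −0.99 in replicate 1 and −0.60 in replicate 2. The 3 that fell were Wnt8a, a Wnt ligand (−3.15, adjusted p = 0.00886), Sox3, a SOX-family factor (−2.15, 0.0160) and Fst, the activin antagonist follistatin (−1.95, 0.0437), while Tcf15, a bHLH factor of cells primed to leave naive pluripotency, rose (2.42, 0.0243). These 4 moved the same way in both replicates. Without the DKO bodies of replicate 1 the count was 1 lower (Wnt8a) and 0 higher, and without those of replicate 2 it was 5 lower (Dnmt3b, Fgf5, Pim2, Sox3 and Wnt8a) and 2 higher (Etv4 and Tcf15). Chosen after their values were seen, Pim2, Dnmt3b and Fgf5 differed more between genotypes in replicate 1 than in replicate 2. Pim2, a kinase gene, went from 238.9 in f/f to 31.8 RPKM in DKO bodies of replicate 1 and from 187.9 to 202.6 FPKM in replicate 2. Dnmt3b, a de novo DNA methyltransferase, went from 196.4 to 24.5 RPKM and from 282.1 to 146.2 FPKM. Fgf5, the classic primed epiblast ligand, went from 47.2 to 6.51 RPKM and from 41.0 to 26.7 FPKM. In replicate 2 Dnmt3b and Fgf5 were thus still lower in DKO bodies, and Pim2 was not.

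From f/f ESC to f/f bodies, 5 of the 19 were called higher and 0 lower (median 0.46, beside 0.06 over all genes). Called or not, 12 of the 19 were higher in both replicates and 7 were lower in both. Of the 5 called, the 4 with the largest change were Wnt8a (2.65), Sox3 (2.57), Fst (2.49) and Foxd3 (1.56), a forkhead factor. Their adjusted p-values were 0.0135, 0.0135, 0.0179 and 0.0212. In DKO cells 0 of the 19 passed between ESC and bodies, near the share of 0.826% over all genes tested. Their median was −0.32, beside 0.04 over all genes. It was −0.52 without the DKO bodies of replicate 1 and −0.39 without those of replicate 2, fits that each leave 1 library of DKO bodies. In ESC, Sox3 was higher in DKO (1.52, adjusted p = 0.0407) and Grhl2, a grainyhead factor of epithelial enhancers, was lower (−1.71, 0.0356), and the other 17 did not pass.

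The called streak genes fell in both replicates. Of 11 listed genes of the primitive streak 10 were tested, and 8 were lower in DKO bodies (median −2.27), led by Tbxt (brachyury), Fgf8, Mixl1 and Lhx1. Tbxt stood at 69.5 and 1.08 RPKM in f/f and DKO bodies of replicate 1 and at 45.1 and 1.05 FPKM in replicate 2 (−4.79 ± 0.57, SE; adjusted p = 0.0135). The same 8 rose from ESC to bodies in f/f cells, and 0 of 10 passed in DKO cells. Over all genes tested, 12% passed in f/f cells and 0.826% in DKO cells, so the count of 0 is near that share. The median of the 10 was 2.21 in f/f cells and 0.08 in DKO cells, beside 0.06 and 0.04 over all genes. In the fit without the DKO bodies of replicate 1, 11 streak genes were tested and 1 was called lower in DKO bodies (Mixl1; median −1.91), and without those of replicate 2, 10 of 11 were (median −2.76). The DKO bodies of replicate 2 therefore carried Otx2, Pou3f1 and Sall2 near the f/f level of that replicate with Tbxt far below it.

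Of 15 listed naive genes, all tested, 10 were called lower in bodies than in ESC in f/f cells and 1 in DKO cells (median −2.72 and −0.92). Over all genes tested, 12% passed in either direction in f/f cells and 0.826% in DKO cells. Called or not, 15 were lower in both replicates in f/f cells. In DKO cells 12 were lower in both, 1 was higher in both and 2 had opposite signs. The 4 largest falls in f/f cells were those of Klf4 (−3.72), Klf2 (−3.41), Nr0b1 (−3.40) and Tcl1 (−3.25), with adjusted p-values of 0.0181, 0.0182, 0.0315 and 0.0197, and Klf5 was the gene called in DKO cells (−2.16, 0.0490). Between genotypes in bodies the median of the 15 was higher in DKO (0.73, beside −0.01 over all genes; 0.58 and 0.95 in replicates 1 and 2). The 2 genes called were both lower in DKO: Dppa3 (−2.12, adjusted p = 0.0155) and Pou5f1 (−0.76, 0.0427), which encodes OCT4. Both calls held without the DKO bodies of replicate 2 and neither without those of replicate 1, and Klf5 in DKO cells was called in neither fit. In ESC the 2 called were Dppa3 (−4.29, 0.0113) and Fbxo15 (−3.31, 0.0135), again lower in DKO.

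Of 16 anterior and neural genes 7 were tested, and in bodies Sox1, an early neural SOX factor, was higher in DKO (2.10, adjusted p = 0.0344) while Nes (nestin) was lower (−3.40, 0.01998). Both were called without either library of DKO bodies, and Six3 was also called higher without that of replicate 1. Sox1 stood at 0.57 and 3.52 RPKM in f/f and DKO bodies of replicate 1 and at 0.48 and 8.43 FPKM in replicate 2. The 5 neural markers (Sox1, Pax6, Nes, Hes5 and Six3) summed to 51.6 and 6.63 RPKM and to 53.3 and 23.6 FPKM, with 1 of 5 and 2 of 5 at 1 or more in replicate 1 and 2 of 5 and 3 of 5 in replicate 2. Nes makes up most of the f/f sums, and Six3, a forebrain homeobox gene, was at 0.015 and 0.54 RPKM and at 1.08 and 8.21 FPKM, while Pax6 and Hes5 stayed under 1 in all 4 body libraries. Otx2, Pou3f1, Zic2 and Zic5 are also expressed in neural tissue, and the part of neural cells in their body levels was not tested. Of 9 genes whose proteins work with OTX2, 8 were tested; 3 were lower in DKO bodies (Foxa2 and Lhx1 from the streak list, and Pou5f1), of which none was called without the DKO bodies of replicate 1 and all 3 without those of replicate 2, and 1 was lower in DKO ESC (Ldb1, a cofactor of LIM-homeodomain proteins, −1.06, adjusted p = 0.0172).

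**Figure D4:**
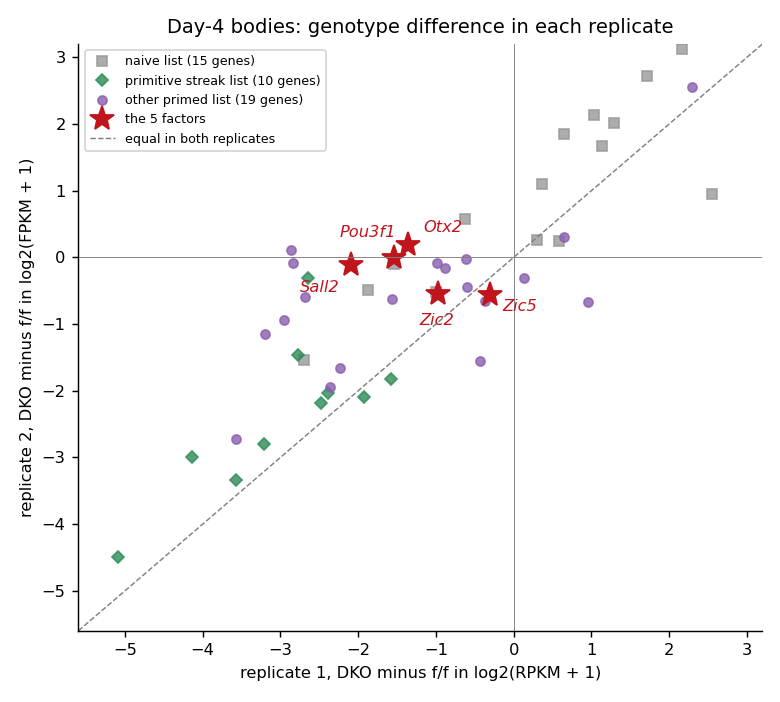
DKO minus f/f in bodies for replicate 1 (horizontal, log2(RPKM + 1)) against replicate 2 (vertical, log2(FPKM + 1)); each point is 1 tested gene of a list, stars are the 5 factors, and the dashed line marks equal differences. Otx2, Pou3f1 and Sall2 lie near 0 on the vertical axis and below −1.3 on the horizontal one, whereas the 8 called streak genes lie below −1.5 on both.

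Across the 8 ESC and body libraries the members followed each other to different degrees. With the mean of each replicate removed, Pearson's r on log2(value + 1) was 0.97 between Otx2 and Sall2, 0.95 between Zic2 and Zic5, 0.94 between Pou3f1 and Sall2 and 0.55 between Pou3f1 and Zic5, the lowest of the 10 pairs. These are descriptions over 8 libraries that share 4 groups. They include the DKO bodies of both replicates, and r without them was not computed. The genes most like each member by the same measure, among 1878 genes with an SD of at least 0.5, included Zfp608, a zinc finger gene, for both Otx2 (r = 0.99) and Sall2 (0.99). Zfp608 went from 1.84 and 1.07 FPKM in f/f and DKO ESC of replicate 2 to 13.7 and 14.2 in bodies, and in replicate 1 from 2.66 and 1.14 RPKM to 11.6 and 2.95. For Otx2 the others were Plxnb1, a plexin receptor (0.99), and Atp10a (0.99). For Sall2 they were Nrcam, a neural cell adhesion gene (0.99), and Jph3 (0.99), for Pou3f1 Zfp36l3 (0.99), Tmem132a (0.99) and Stbd1 (0.97), and for Zic2 Mapk12 (0.99), Rai1 (0.98) and Dtx4 (0.98).

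For Zic5 the gene most like it was 2610035F20Rik (r = 0.96), a long non-coding RNA that the RefSeq annotation places between Zic5 and Zic2. It stood at 5.15, 3.04, 11.4 and 6.96 RPKM in f/f ESC, DKO ESC, f/f bodies and DKO bodies of replicate 1. In replicate 2 it stood at 5.69, 2.83, 16.2 and 7.63 FPKM in the same order. It was higher in f/f bodies than in f/f ESC (1.19 ± 0.17, SE; adjusted p = 0.0167), and lower in DKO cells of both stages without passing (ESC −0.71, adjusted p = 0.0761; bodies −0.82, 0.0528). For overlapping genes on opposite strands the reads cannot be told apart, since no source names the strand setting of the counting. Of the genes on the far sides, Pcca next to Zic2 did not pass in any contrast, and Gm5089 next to Zic5 was under 1 in all 8 libraries. Next to Otx2, the antisense Otx2os1 was at most at 0.40 in all 8 libraries. Tmem260, on the other side of Otx2, differed between genotypes in bodies by −0.73 and −0.18 in replicates 1 and 2. Mettl3 next to Sall2 differed by −0.96 and −0.06, and Utp11 next to Pou3f1 by −0.04 and −0.26. None of these 3 passed in any contrast. The other neighbours of Sall2 and Pou3f1 were at or near 0. These neighbours were chosen after the data were seen. The next genes most like Zic5 were Snord38a, a small nucleolar RNA (r = 0.96), and 2810408A11Rik (0.96).

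In the Sall family, Sall1 and Sall4 stood above Sall2 in ESC of replicate 2. In f/f ESC, Sall4 was at 91.2 FPKM and Sall1 at 64.2, against 1.52 for Sall2. Of 10 listed paralogs, 3 were tested (Sall1, Sall3 and Sall4), and Sall4 was lower in DKO ESC (−0.73 ± 0.14, SE; adjusted p = 0.0428). The Otx and Pou3f paralogs (Otx1, Crx, Pou3f2, Pou3f3 and Pou3f4) were at or under 1.13 in all 8 ESC and body libraries.

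In fibroblasts and at day 20 only Sall2 of the 5 members was above 1 FPKM. Sall2 stood at 8.02 and 7.62 FPKM in fibroblasts labelled f/f and DKO and at 6.64 and 7.26 FPKM at day 20, each from at least 886 estimated reads. None of these 4 values differed by the log2(FPKM + 1) difference of 1 that was set for naming a change without a test, a size passed by 8.78% of 11982 genes between fibroblast genotypes and by 18.6% between day-20 genotypes. With 1 library per group these differences have no replicate check.

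The other 4 members were at or near 0. Otx2 was at 0 in both fibroblast libraries and in day-20 DKO cells, which allows up to 0.0387, 0.0293 and 0.0479 FPKM (3 reads per library), and at 0.0149 FPKM, a single read, in day-20 f/f cells. Pou3f1 was between 0.0133 and 0.0459 FPKM, from 1 to 5 reads. Zic5 was at 0 in f/f fibroblasts, which allows up to 0.0435 FPKM, and at 0.165 FPKM in DKO fibroblasts, 0.0503 in day-20 f/f and 0.0717 in day-20 DKO cells.

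Zic2 was the highest of the 4 at day 20, with 0.418 FPKM in f/f (31 reads) and 0.158 FPKM in DKO cells (11 reads), against 0.0233 and 0.106 in fibroblasts. The day-20 f/f library also held Pou5f1 at 19.8 FPKM and Sox2 at 9.36 FPKM, against 0.118 and 0.243 in DKO, and the labels do not say whether transgenes are counted in these values. Zic1, which was at 0.0413 FPKM in f/f fibroblasts, was at 5.12 FPKM (429 reads) at day 20 in f/f and at 0.204 in DKO cells, a difference of −2.35 in log2(FPKM + 1). The 8 fibroblast markers summed to 3259 and 2665 FPKM in fibroblasts and to 13176 and 9603 FPKM at day 20. All 8 were above 1 in both day-20 libraries. These libraries are titled D20 iPSC. Their 5 ESC markers summed to 34.8 FPKM in f/f and 10.1 FPKM in DKO, against 1608 FPKM in f/f ESC of replicate 2.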

How the data were processed

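RNA sequencing libraries (12) were analysed. Per the file headers, the authors deposited read counts and RPKM of each RefSeq transcript for replicate 1 of ESC and bodies. Per the file headers, the other libraries hold an FPKM for each Entrez gene. Named in the submitters' processing notes are mm9, bedtools 2.16, SICER 1.1 and CASAVA 1.8.2; aligner, annotation and strand setting: not given in the sources used here. Of 29082 transcripts, 28436 matched the RefSeq gene table (GRCm38.p6, names and gene order only), and each gene took its transcript with the most reads. Depth behind FPKM came from the steps between low values, of which 90.3% to 91.8% per library were whole reads within 0.02. Member values were whole within 0.0023 reads once gene length was searched, so this does not test the depth.

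Tests used limma 3.58.1 (R 4.3.3; trend, two-sided) on log2(value + 1) over the 8 ESC and body libraries, with 4 groups and the replicate number as a block, for genes with a mean of at least 1 (3 residual and 3.27 prior degrees of freedom; Benjamini-Hochberg over 12466 genes; threshold 0.05). The block was kept because same-numbered libraries deviated together (r = 0.864 to 0.954 across genes); the number also separates the 2 kinds of table, and the cause of the shared deviation was not tested. The script was tested on simulated data. Fibroblast and day-20 groups have 1 library each, with no test and a difference of 1 in log2(FPKM + 1) for naming a change. Alternatives were the pseudocount, filter, scaling within replicates, block, summed transcripts, edgeR 4.0.16 on reads (estimated for FPKM, rounded) and leaving out each library. Limits of 0 are 3 reads and, like read numbers, cover counting error only. Named genes were the 5 members, up to 4 genes per list with the largest change past the threshold and the same sign in both replicates, the listed paralogs detected, the 3 genes most like each member, and Kmt2d. Members and lists were chosen with earlier results of these data known. One item is not reported here.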

Additional observations from a re-analysis of the deposited data

Results flagged for a closer look

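Pou3f1 was higher in DKO than in f/f ESC in both replicates (0.79 and 0.40 in log2(value + 1)) and below 0 in bodies in both (−1.54 and −0.02), so that the signs were opposite between the stages. The value of replicate 2 in bodies is near 0 (44.5 against 44.0 FPKM), and without the DKO bodies of replicate 1 the body estimate was 0.11. The difference of the effects was −1.37 and did not pass (limma adjusted p = 0.424).

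Sall2 was lower in the fibroblast library labelled DKO (7.62 against 8.02 FPKM) and higher in the day-20 library labelled DKO (7.26 against 6.64 FPKM). The effects differ by 0.178 in log2(FPKM + 1), with 1 library per group, and the difference was not tested.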

How the results depend on the processing

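Each ESC and body value of a member rested on at least 138 reads, and no fit at another depth was run. Numbers below are members called, then all genes called.

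DKO against f/f in ESC (1 and 529) gave 0 and 0 without the filter and without a replicate block, and 2 and 1428 with the replicate block within each stage. Leaving out 1 library gave 0 to 2 members and 0 to 743 genes. DKO against f/f in bodies (1 and 553) gave 0 members with a pseudocount of 0.5 or 0.1, with median-of-ratios or quantile scaling, with summed transcripts and with edgeR with the replicate block. It gave 0 and 23 without the filter, 0 and 327 with a mean of at least 5, 0 and 2 with no replicate block, and 1524 genes with the replicate block within each stage; leaving out 1 library gave 0 to 4 members and 0 to 799 genes. Bodies against ESC in f/f (4 and 1495) gave 0 and 14 without the filter, 990 genes with a mean of at least 5, 2 members with quantile scaling, 0 and 0 with no replicate block, and 3241 genes with the block within each stage; leaving out 1 library gave 0 to 5 members and 0 to 1886 genes. Bodies against ESC in DKO (2 and 103) gave 0 and 15 without the filter, 0 and 1 with no replicate block, and 886 genes with the block within each stage; leaving out 1 library gave 0 to 3 members and 0 to 111 genes. The interaction (0 and 0) gave 4 genes without the filter and 353 with the block within each stage. The cause of these changes was not tested, except that a fit without a library has fewer samples.

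Over the 5 contrasts, the members' differences were on the same side of 0 and of the threshold in 219 of 250 fits with another setting and in 130 of 200 that left out a library. Of the others, 1 and 14 changed sign. The Otx2 interaction was 0.091 with edgeR with the replicate block and −0.99 to 0.80 with a library left out. Those of Sall2 and Zic2 were −2.21 to 0.24 and −0.34 to 0.069. With a library left out, DKO against f/f in ESC was −1.03 to 0.050 for Otx2 and −0.81 to 0.57 for Sall2. In bodies it was −1.48 to 0.31 for Otx2, −1.66 to 0.11 for Pou3f1 and −2.33 to 0.12 for Sall2, and bodies against ESC in DKO was −0.33 to 1.44 for Pou3f1. With a pseudocount of 0.1, the low FPKM of Zic2 differed by −1.003 between day-20 genotypes and 2.07 between f/f day 20 and fibroblasts, and Zic5 by 1.40 between fibroblast genotypes.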
